A study of Homo sapiens with 6 samples.

Results

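The genes described here serve the unfolded protein response and protein folding in the endoplasmic reticulum (ER). The set was given by name and holds 34 genes, comprising 5 stress sensors and regulators, 9 chaperones and co-chaperones, 4 disulfide isomerases, 6 genes of ER-associated degradation and 10 genes of the translocon and its partners. All 34 were found among the 29816 genes of the deposited table. They were measured by polyA RNA sequencing in KYSE-150, a human cell line from an esophageal squamous cell carcinoma. One group of 3 libraries came from cells transfected with the control small interfering RNA si-NC, and the other 3 from cells given si-circTMEM45A, aimed at the circular RNA circTMEM45A. Both groups went through transfection, and no untransfected cells were measured. The labels name 1 cell line, give no time after transfection and do not say whether replicates were separate cultures, so the p-values rest on library-to-library spread that could be technical. The si-NC libraries are called NC1, NC2 and NC3 and the si-circTMEM45A libraries SI1, SI2 and SI3, after their replicate numbers.

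Proteins that enter the secretory pathway are threaded into the ER through the SEC61 channel, folded by chaperones and disulfide isomerases, and, if folding fails, sent back to the cytosol for degradation. Unfolded protein in the ER is sensed by IRE1 (encoded by ERN1), PERK (EIF2AK3) and ATF6. IRE1 splices the XBP1 messenger, PERK phosphorylates the initiation factor eIF2 alpha, and ATF6 is cut to release a transcription factor, and together they raise the folding and degradation genes. Splicing of XBP1, phosphorylation and cleavage are not seen in a gene-level RNA value.

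Spliced XBP1 and ATF6 are known to act through the ER stress response element, whose letters are printed here. The members were chosen as genes of this response, so their share with the element is not independent of that choice. RefSeq promoter windows (GRCh38.p14, 250 bases before to 50 after each annotated start) were found for 31 of the 34 members, and not for PDIA3, DERL1 and DERL3. The element, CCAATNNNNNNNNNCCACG on either strand, was present in 6 of these 31 members (19.4%), against 16 of 8934 tested genes with a window (0.179%) and 27 of all 35116 windows (0.0769%). The 16 tested genes include the members themselves. Each is shown 5′ to 3′ on the strand that reads CCAAT first, with CCAAT and CCACG in capitals.
HSPA5: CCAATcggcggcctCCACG
PDIA6: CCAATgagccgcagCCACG
XBP1: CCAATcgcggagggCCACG
CRELD2: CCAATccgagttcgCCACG
SERP1: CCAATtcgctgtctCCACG
HSP90B1, nearer the start: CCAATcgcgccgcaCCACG
HSP90B1, farther from the start: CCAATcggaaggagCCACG

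The HSPA5 element lay at chr9:125241391-125241409 on the minus strand, 48 to 66 bases before the start and outside any GENCODE 29 gene. The XBP1 element lay at chr22:28800603-28800621 on the minus strand, 34 to 52 bases before the start, also outside any gene. The PDIA6 element at chr2:10812853-10812871 (minus) and the CRELD2 element at chr22:49918554-49918572 (minus) lay inside those genes as annotated by GENCODE 29 but in no exon, 68 to 86 and 62 to 80 bases before the RefSeq start. Exons of SERP1 and EIF2A covered the SERP1 element at chr3:150546710-150546728 (plus). Both HSP90B1 elements, at chr12:103930321-103930339 (minus) and chr12:103930216-103930234 (plus), lay in exons of HSP90B1. The elements thus stood before starts of genes in 3 states. HSPA5 and PDIA6 rose with si-circTMEM45A, SERP1 fell, and XBP1, CRELD2 and HSP90B1 did not pass the test, as detailed in the paragraphs on each role. Over the 16 tested genes with the element, 3 rose and 2 fell, with a median log2 fold change of 0.08. Those that rose were HSPA5, PDIA6 and CALR, and those that fell SERP1 and ERO1B. All are members or genes of the further lists below, so the count adds no other genes that passed. Over all tested genes 11.1% rose and 7.64% fell.

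A second form, ATTGG and CCACG with 1 base of any kind between them on either strand, was in 3 of the 31 members (9.68%) and 15 of the 8934 tested genes (0.168%). It is shown for HYOU1, the member with the smallest p-value, in the 190 bases before its start (chr11:119057206-119057395, minus strand, outside any gene). The capitals mark 2 copies, which on this strand read as the reverse complement.
HYOU1: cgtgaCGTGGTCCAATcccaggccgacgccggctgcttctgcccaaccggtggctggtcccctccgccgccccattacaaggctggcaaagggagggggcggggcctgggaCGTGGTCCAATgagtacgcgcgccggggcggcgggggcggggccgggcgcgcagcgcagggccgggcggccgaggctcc
The other members with this form were HERPUD1 (ATTGGgCCACG, 107 to 117 bases before the start) and SDF2L1 (ATTGGtCCACG, 178 to 188 bases before it, on the opposite strand). The core TGACGTG was in 5 of 31 members, HYOU1, SEC61A1, SEC62, SSR3 and SSR4, against 3.37% of tested genes. The short motifs alone were common, with CCACG in 57.6% and CCAAT in 43.1% of tested genes and each in 25 of 31 members. They overlap with the longer elements, which contain them. A match is a description of letters and not a measured binding site.

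The libraries held 16636248 to 17323964 gene-assigned reads each. Genes with at least 1 FPKM (fragments scaled to gene length and library depth) in at least 3 libraries were tested, 12676 in all. Of the members, 33 were tested, each on 182 to 10408 reads per library, and DERL3, which encodes a derlin family protein, stayed out with at most 1 read in any library. Counting error is only part of the spread of these values. Libraries of one group differed by more, at a chi-square per degree of freedom of 2.71 to 5.07. TMEM45A, the host gene of the targeted circle, averaged 3.12 ± 0.19 FPKM (SD, n = 3) in the si-NC group and 2.12 ± 0.22 in the other. It fell in limma (adjusted p = 0.0167), a call lost with no filter on low values (0.0614) and without NC1, NC3, SI2 or SI3 (limma adjusted p 0.0505 to 0.0587). This gene-level value does not measure the circle. Of the squamous markers looked at, 7 of 8 were tested, with 5 lower and KRT17 higher, and their summed level ran from 1083 to 1210 FPKM in the si-NC group and from 901 to 1023 FPKM in the other. Fibroblast markers summed to 1.96 to 2.34 and 2.13 to 2.38 FPKM (1 of the 3 genes in the table tested, COL1A1), and endothelial, immune and columnar markers to at most 1.48 FPKM in any library, with 0 of 13 tested. PECAM1, AIF1 and KRT20 were listed at 0 in every si-NC library. The part of the squamous marker shift in the values below was not tested. In bulk RNA, fewer cells of one state and less RNA per cell cannot be told apart.

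With si-circTMEM45A, 7 of the 33 tested members rose, namely the stress regulator PPP1R15A, the chaperones HYOU1 and HSPA5, the disulfide isomerase PDIA6 and the translocon genes SEC61A1, SEC61B and SSR4. The translocon partner SERP1 and the degradation gene DERL1 fell. The changes were modest, with means 10.5 to 44.5% higher or 14.9 to 17.8% lower, and no member changed 2-fold. The 7 that rose are 21.2% of the tested members, where 11.1% of all tested genes rose, and the 2 that fell are 6.06%, where 7.64% of all tested genes fell (limma, Benjamini-Hochberg adjusted p below 0.05 over all genes). The members were chosen with earlier results of these data known, so their shares are not independent of these data. The shares also depend on the filter. With a filter of at least 5 FPKM, 8 of 30 members rose and 3 fell, where 1356 and 946 of 7679 genes did. The median log2 fold change was 0.05 for the members and 0.03 for all tested genes. All 3 values with si-circTMEM45A lay above all 3 with si-NC for 11 members and below for 7, against 23.3% and 16.0% of all tested genes. The counts depended on scaling. With median-of-ratios scaling 3 members rose and 5 fell, where 1021 and 1237 of all 12676 tested genes did. With quantile normalization 5 rose and 5 fell, where 1119 and 1168 of all tested genes did. Every one of the 9 members kept its sign under the 3 scalings tried. Without NC1, NC2 or NC3 in turn, 6, 3 and 4 members rose and 0, 1 and 1 fell, and without SI1, SI2 or SI3, 3, 3 and 4 rose and 3, 0 and 0 fell (limma). Over all 12676 genes, the fits that left out 1 library called 775 to 1088 higher and 548 to 857 lower. Where 0 fell without NC1, SI2 or SI3, an unadjusted p under 0.05 was reached by 4, 3 and 5 members that were lower. With limma voom over all libraries 8 of the 33 members rose and 7 fell, where 1958 and 1411 of all 12676 genes did.

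**Figure D1:**
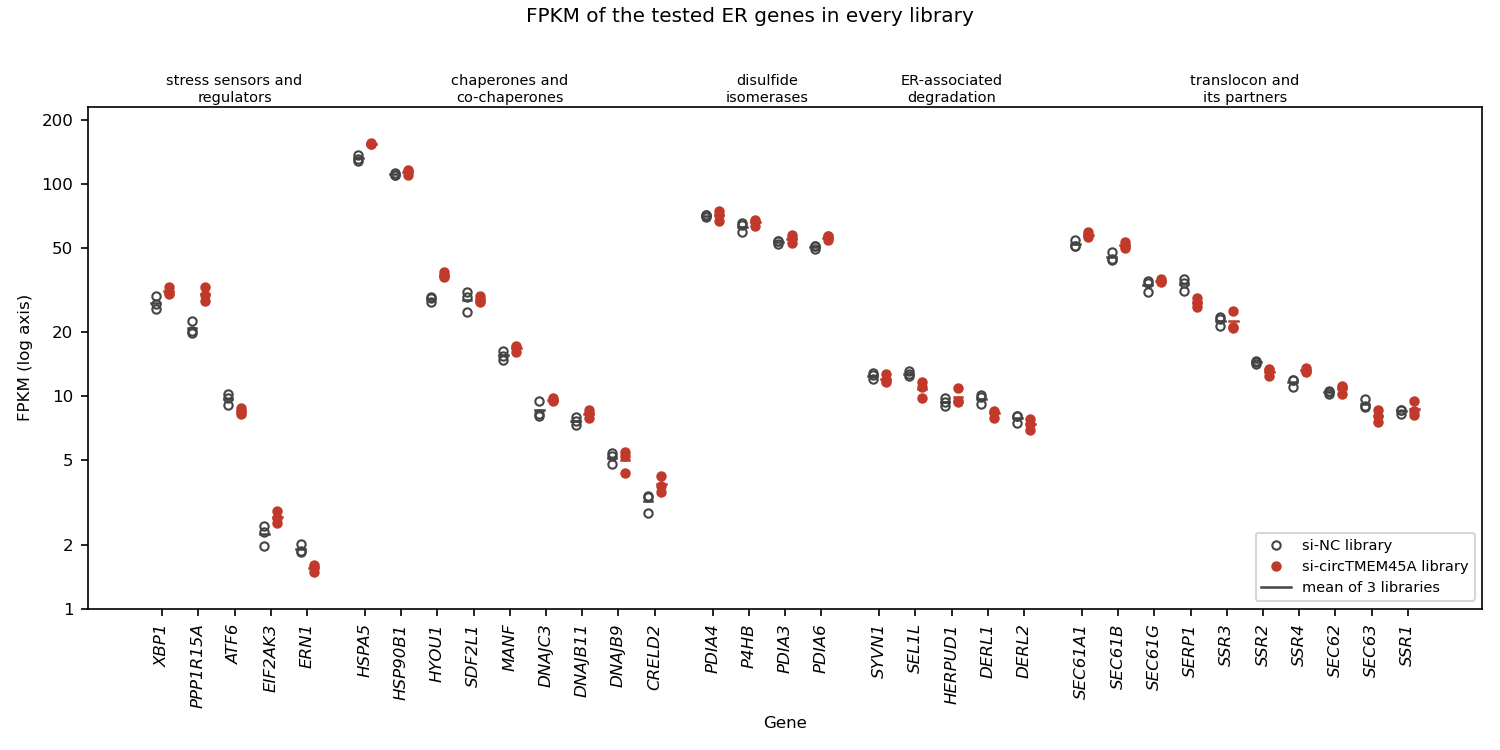
FPKM of the 33 tested members on a log axis, grouped by role, with open circles for the 3 si-NC libraries, filled circles for the 3 si-circTMEM45A libraries and bars for group means. HSPA5 is the most abundant and ERN1 the least. The circles of the groups are apart upward for 11 members, PPP1R15A, HYOU1 and HSPA5 among them, and downward for 7. Of all tested genes, 23.3% are apart upward and 16.0% downward.

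**Figure D2:**
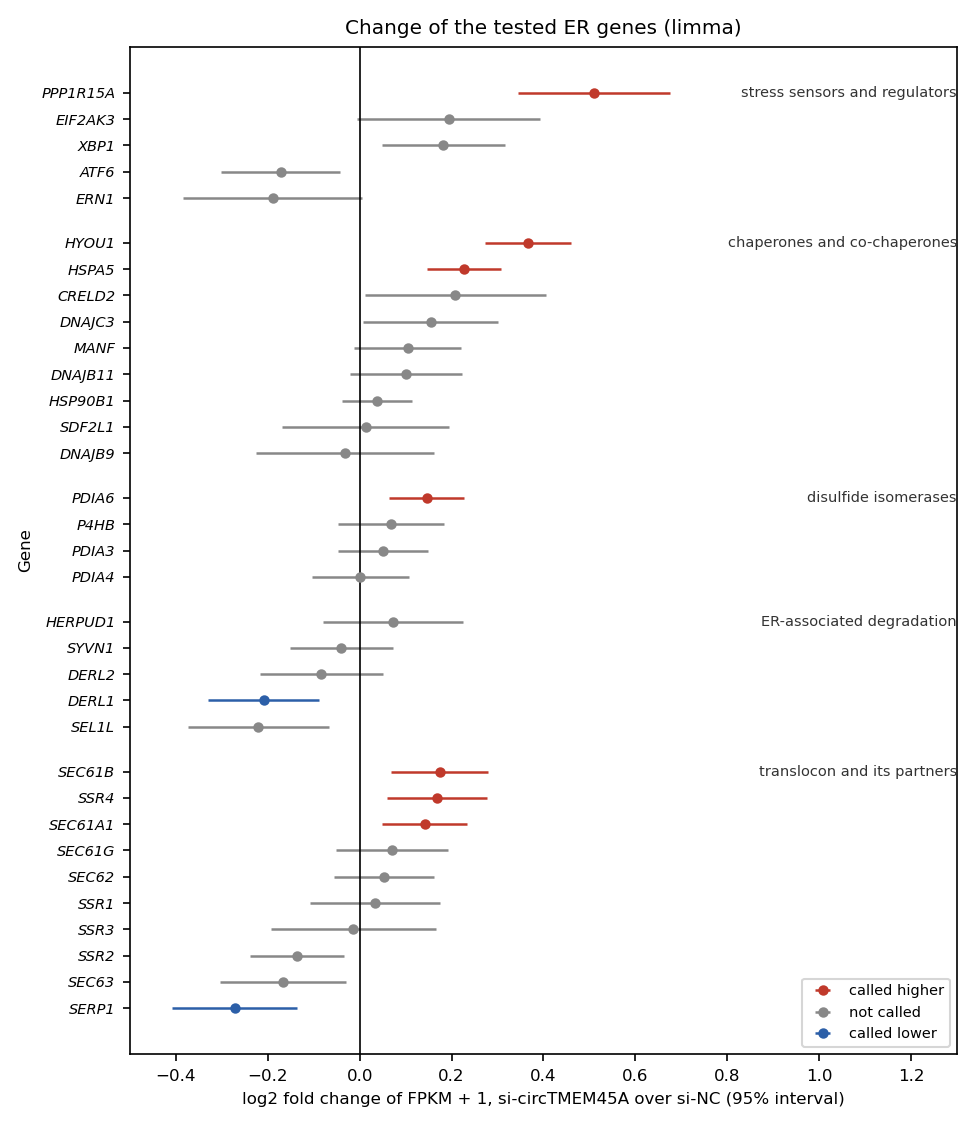
Fold change of each tested member on the log2(FPKM + 1) scale with its 95% interval from limma, ordered by size within each role. Red marks the 7 members that rose, blue the 2 that fell (SERP1 and DERL1) and grey the 24 that did not pass.

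Among the stress sensors and regulators, 1 of 5 passed. PPP1R15A (ENSG00000087074, chromosome 19, 48872392 to 48876057), also known as GADD34, recruits a phosphatase that removes the PERK mark from eIF2 alpha. It stood at 22.6, 20.3 and 19.8 FPKM in NC1, NC2 and NC3 and at 30.02, 32.7 and 27.9 FPKM in SI1, SI2 and SI3. All 3 si-circTMEM45A libraries were above all si-NC libraries. The log2 fold change was 0.51 ± 0.07 (SE, n = 3; limma adjusted p = 0.00466), and it stayed below 0.05 in each of the 16 alternative fits (adjusted p at most 0.0234).

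The 3 sensors and XBP1 did not pass in limma, although in each the libraries of the groups did not overlap. Of all tested genes, 23.3% had groups apart upward and 16.0% downward. XBP1, the transcription factor gene spliced by IRE1, was at 29.4, 25.7 and 27.0 FPKM in NC1 to NC3 and 32.6, 30.3 and 30.6 FPKM in SI1 to SI3 (log2 fold change 0.18 ± 0.06 SE; limma adjusted p = 0.0664). EIF2AK3, the PERK gene, was at 2.44, 2.29 and 1.98 FPKM and then 2.89, 2.67 and 2.53 FPKM (0.19 ± 0.08 SE; limma adjusted p = 0.155). Both of these were higher in the si-circTMEM45A libraries. ATF6 went the other way, at 10.2, 9.04 and 9.82 FPKM against 8.78, 8.25 and 8.44 FPKM (-0.17 ± 0.05 SE; limma adjusted p = 0.0701). ERN1, the IRE1 gene and the least abundant tested member, was at 1.85, 2.02 and 1.86 FPKM against 1.48, 1.57 and 1.61 FPKM (-0.19 ± 0.08 SE; limma adjusted p = 0.155). Values were thus higher for PERK and lower for IRE1 and ATF6, with none of the 3 past the threshold. The ratio of EIF2AK3 to ERN1 within a library, picked after the values were seen, was 1.32, 1.134 and 1.06 with si-NC and 1.95, 1.71 and 1.57 with si-circTMEM45A, and is given with no test. The log2(FPKM + 1) scale shrinks changes of such low genes. Among the alternatives without a replicate block, XBP1 passed without NC1 and with genes of at least 5 FPKM, ATF6 with median-of-ratios scaling or quantile normalization, and ERN1 without the variance trend, and limma voom on the recovered reads called XBP1, ATF6 and ERN1 (limma adjusted p over the alternatives 0.0197 to 0.171, 0.0212 to 0.185 and 0.0216 to 0.336).

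Of the 9 chaperones and co-chaperones, HSPA5 and HYOU1 rose, and 8 of 9 had a positive log2 fold change, with a median of 0.10. Over all 12676 tested genes 7187 were positive and 11.1% rose. HSPA5 (ENSG00000044574, chromosome 9, 125234853 to 125241330) encodes BiP, the main HSP70 of the ER and the one that holds the stress sensors inactive. It was at 136, 127 and 131 FPKM in NC1, NC2 and NC3 and at 155, 153 and 153 FPKM in SI1, SI2 and SI3. The si-circTMEM45A libraries were all above the highest si-NC library and close to each other (SD 1.01 FPKM, against 4.52 FPKM with si-NC). The log2 fold change was 0.23 ± 0.03 (SE, n = 3; limma adjusted p = 0.00641). HYOU1 (ENSG00000149428, chromosome 11, 119044189 to 119057202) encodes a large HSP70-like protein that exchanges the nucleotide of BiP. Its values were 29.1, 27.7 and 29.002 FPKM in NC1 to NC3 and 36.4, 38.5 and 36.6 FPKM in SI1 to SI3, again with no overlap. Its log2 fold change was 0.37 ± 0.04 (SE, n = 3; limma adjusted p = 0.00234). Both genes passed in all 16 alternative fits, with adjusted p at most 0.0279 for HSPA5 and 0.0162 for HYOU1. Antisense AP003392.3 shares 8.66% of the HYOU1 exon bases, and no source used here says whether reads were counted by strand.

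The other 7 chaperones did not pass. HSP90B1, which encodes the ER HSP90 protein GRP94 and was the second most abundant member, had 110.4 ± 1.31 FPKM (SD, n = 3) with si-NC and 113 ± 2.82 with si-circTMEM45A. Its log2 fold change of 0.04 had a 95% interval of -0.04 to 0.11, and HSPA5, beside it in abundance, had an interval of 0.15 to 0.31. HYOU1 per HSP90B1 within a library, a ratio picked after the values were seen, was 0.261, 0.253 and 0.263 with si-NC and 0.317, 0.349 and 0.317 with si-circTMEM45A, and is given with no test. CRELD2, a secreted ER stress protein, and DNAJC3, a J-domain cofactor of BiP, had no overlap between groups, at 3.19 ± 0.33 against 3.84 ± 0.33 FPKM and 8.57 ± 0.76 against 9.63 ± 0.19 FPKM (limma adjusted p = 0.129 and 0.13). DNAJC3 passed only without NC1 (limma adjusted p = 0.0413, range over the alternatives 0.0413 to 0.307). MANF, DNAJB11, SDF2L1 and DNAJB9 had overlapping groups, with log2 fold changes of 0.10, 0.10, 0.01 and -0.03. SDF2L1 and DNAJB9 are well-known targets of the response, and their 95% intervals were -0.17 to 0.20 and -0.23 to 0.16.

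The 4 disulfide isomerases form and rearrange disulfide bonds in new proteins, and were all abundant, at 50.2 to 70.9 FPKM on average. PDIA6 (ENSG00000143870, chromosome 2, 10783391 to 10837977), which also binds IRE1, was the one that rose. It was at 49.3, 50.7 and 50.6 FPKM in NC1, NC2 and NC3 and at 56.4, 56.6 and 54.0 FPKM in SI1, SI2 and SI3. The groups did not overlap, and the log2 fold change was 0.15 ± 0.03 (SE, n = 3; limma adjusted p = 0.0282). The call was lost with median-of-ratios scaling (adjusted p = 0.0603), without the variance trend (0.068) and without any 1 library except SI3 (limma adjusted p 0.0606 to 0.0865, range over the alternatives 0.0130 to 0.0865). P4HB, which is PDI itself, had 62.6 ± 3.30 FPKM in the si-NC group and 65.6 ± 2.42 in the other (SD, n = 3). PDIA3 and PDIA4 had log2 fold changes of 0.05 and 0.00, with 95% intervals of -0.05 to 0.15 and -0.10 to 0.11. The opposite-strand gene ATP6V1C2 covers 25.2% of the PDIA6 exon bases and averaged 0.357 FPKM. PDIA3 has the processed copies PDIA3P1 and PDIA3P2 at 3.62 and 2.92 FPKM, so its reads may be split.

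In ER-associated degradation, a membrane complex recognises misfolded proteins, tags them with ubiquitin and passes them to the cytosol. Of the 5 tested members 4 had a negative log2 fold change, as did 5489 of all 12676 tested genes, and DERL1 passed. DERL1 (ENSG00000136986) encodes derlin-1, a channel-like membrane protein of this complex. It was at 10.1, 9.89 and 9.21 FPKM in NC1, NC2 and NC3 and at 8.54, 7.93 and 8.38 FPKM in SI1, SI2 and SI3. All si-circTMEM45A values were lower, with a log2 fold change of -0.21 ± 0.05 (SE, n = 3; limma adjusted p = 0.032). SEL1L, the scaffold of the HRD1 ubiquitin ligase, had a fold change of the same size but a wider spread. It was at 12.7, 13.1 and 12.4 FPKM against 11.7, 9.75 and 11.0 FPKM, with SI2 the lowest (-0.22 ± 0.07 SE; limma adjusted p = 0.0557). SYVN1, the HRD1 ligase itself, had overlapping groups at 12.4 ± 0.43 and 12.1 ± 0.51 FPKM (SD, n = 3). DERL2 and HERPUD1, which recruits HRD1 to its substrates, also overlapped, with log2 fold changes of -0.08 and 0.07. SYVN1 shares 7.24% of its exon bases with FAU on the same strand, a gene at 17.9 FPKM. DERL1 lost its call with no filter on low values (adjusted p = 0.0768) and without NC1 or NC2 or SI2 or SI3 (limma adjusted p 0.0798 to 0.0957, range over the alternatives 0.00664 to 0.0957). SEL1L gained one with FPKM of at least 5, with TPM, with the median-of-ratios and quantile scalings, with limma voom and without SI1 (adjusted p over the alternatives 0.00350 to 0.1505).

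The 10 translocon genes went both ways, with 3 that rose and 1 that fell, and with groups apart upward for 3 and downward for 3. Over all tested genes 11.1% rose and 7.64% fell, and groups were apart upward for 23.3% and downward for 16.0%. SEC63 and SSR2, like SEL1L among the degradation genes, are given by library after their values were seen. SEC61A1 (ENSG00000058262, chromosome 3, 128051641 to 128071683) encodes the pore of the channel. It was at 54.2, 50.7 and 51.1 FPKM in NC1, NC2 and NC3 and at 56.2, 57.1 and 59.0 FPKM in SI1, SI2 and SI3, without overlap (log2 fold change 0.14 ± 0.04 SE; limma adjusted p = 0.0462). SEC61B (ENSG00000106803, chromosome 9, 99222064 to 99230615), its beta subunit, was at 43.9, 44.1 and 47.7 FPKM and then 52.9, 49.9 and 50.6 FPKM (0.17 ± 0.04 SE; limma adjusted p = 0.037). The gamma subunit SEC61G, with 33.3 ± 2.23 and 34.95 ± 0.58 FPKM (SD, n = 3), had overlapping groups. Its log2 fold change of 0.07 had a 95% interval of -0.05 to 0.19, which includes the fold changes of the other two subunits. SEC62 and SEC63 help the channel take up finished chains, and SEC63 also brings BiP to it. SEC63 was at 9.66, 8.93 and 8.95 FPKM against 8.61, 8.05 and 7.56 FPKM, lower in all 3 libraries but not past the threshold (-0.17 ± 0.06 SE; limma adjusted p = 0.0914), and SEC62 overlapped. The ratio of SEC61A1 to SEC63 within a library, picked after the values were seen, was 5.60, 5.68 and 5.71 with si-NC and 6.52, 7.09 and 7.80 with si-circTMEM45A, and is given with no test.

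SSR1 to SSR4 encode the 4 subunits of the translocon-associated protein complex, which sits beside the channel and helps certain signal peptides to insert. SSR4 (ENSG00000180879, chromosome X, 153793516 to 153798505) was at 11.9, 11.1 and 12.0 FPKM in NC1, NC2 and NC3 and at 13.6, 12.9 and 13.1 FPKM in SI1, SI2 and SI3 (log2 fold change 0.17 ± 0.05 SE; limma adjusted p = 0.0442). SSR2 was at 14.5, 14.2 and 14.5 FPKM against 13.4, 12.4 and 13.2 FPKM, lower in all 3 libraries without passing (-0.14 ± 0.04 SE; limma adjusted p = 0.0723). The subunit SSR4 was thus below SSR2 in each si-NC library and near it in each si-circTMEM45A library. Their ratio, picked after the values were seen, was 0.820, 0.780 and 0.827 with si-NC and 1.01, 1.04 and 0.992 with si-circTMEM45A, and is given with no test. SSR1 and SSR3 had overlapping groups, with log2 fold changes of 0.03 and -0.01. SSR4 has a processed copy, SSR4P1, at 1.45 FPKM, and shares 6.06% of its exon bases with IDH3G on the opposite strand, at 20.6 FPKM.

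SERP1 (ENSG00000120742, chromosome 3, 150541994 to 150603228) encodes RAMP4, a small protein of the translocon that protects membrane proteins during stress, and had the lowest log2 fold change of the tested members. That order holds on the log2(FPKM + 1) scale, and by group means ERN1 was 18.8% lower and SERP1 17.8%. It was at 35.5, 31.1 and 34.03 FPKM in NC1, NC2 and NC3 and at 28.9, 26.4 and 27.5 FPKM in SI1, SI2 and SI3. No library overlapped, and the log2 fold change was -0.27 ± 0.06 (SE, n = 3; limma adjusted p = 0.0197). The call was lost with no filter on low values (adjusted p = 0.0645) and without NC1 or NC3 or SI2 or SI3 (limma adjusted p 0.0593 to 0.0628, range over the alternatives 0.00026 to 0.0645). The 3 translocon genes that rose were less stable in limma. SSR4 lost its call without any 1 library (adjusted p 0.0794 to 0.121), SEC61A1 without any except NC1 (0.0578 to 0.141) and SEC61B without any except NC3 (0.0672 to 0.107). All 3 were also lost with no filter, with median-of-ratios scaling and without the variance trend. SSR4 was lost with TPM and with quantile normalization too (limma adjusted p = 0.058 and 0.0723). SEC61A1 was lost with TPM (limma adjusted p = 0.0626) and SEC61B with quantile normalization (0.0542). Over all alternatives in limma, adjusted p ranged from 0.0319 to 0.121 for SSR4, 0.0151 to 0.148 for SEC61A1 and 0.0217 to 0.107 for SEC61B. RUVBL1 on the opposite strand covers 7.32% of the SEC61A1 exon bases, at 16.3 FPKM, and EIF2A covers 2.66% of those of SERP1, at 25.5 FPKM.

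**Figure D3:**
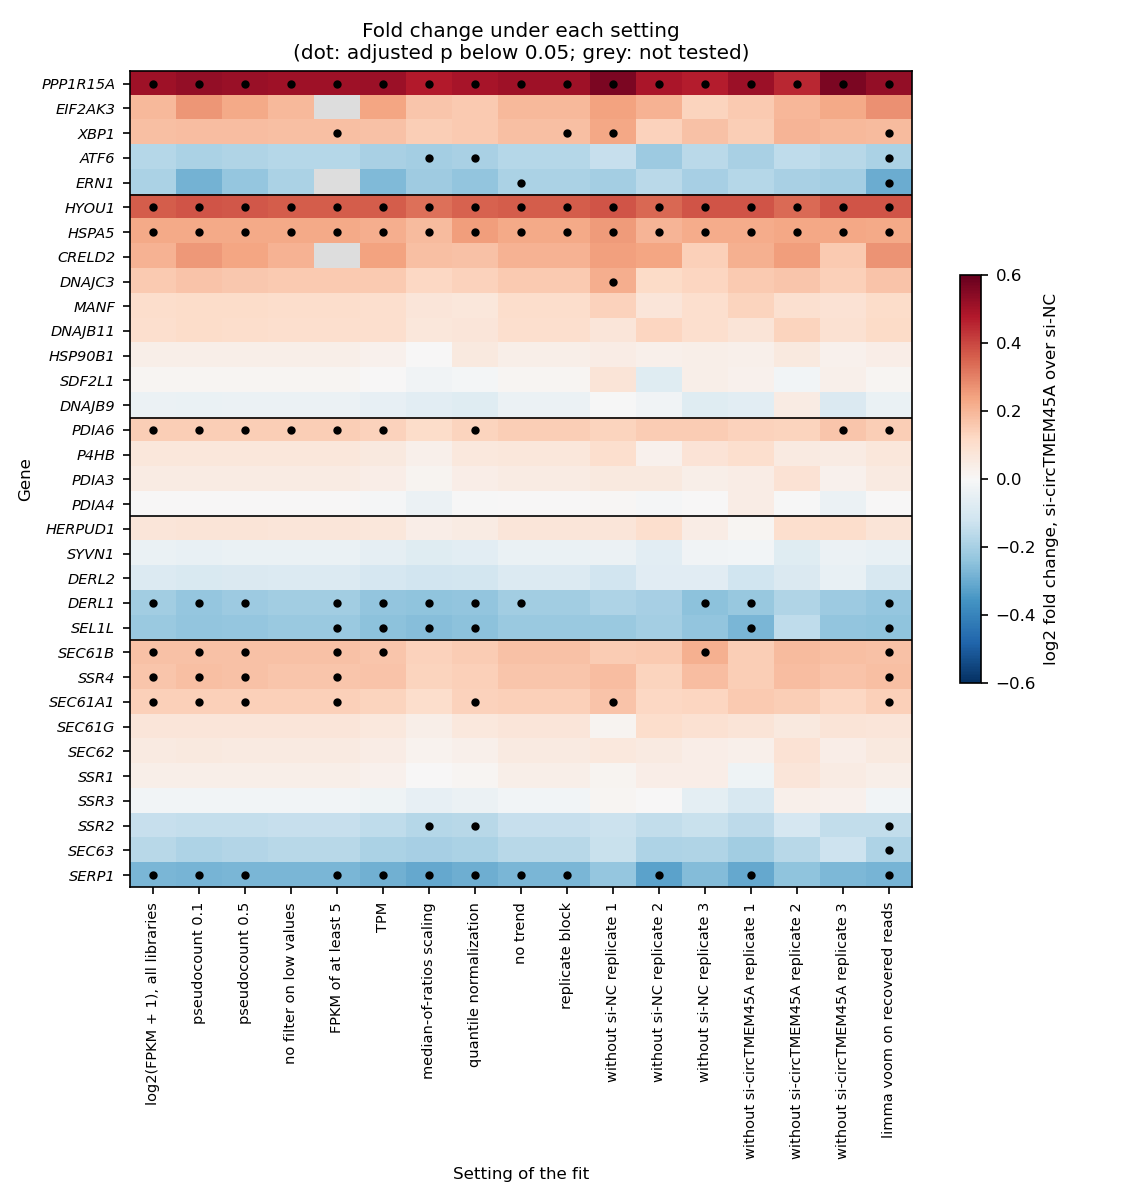
Log2 fold change of each tested member (rows, grouped by role) under every fit that was run (columns), with a dot where the adjusted p was below 0.05 and grey where the gene was not tested. PPP1R15A, HYOU1 and HSPA5 carry a dot in every column, and the translocon genes in few of the columns that leave out a library.

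The rest of the pathway was read from 8 lists of 152 further genes, of which 136 were tested. Of these 33 rose (24.3%) and 8 fell (5.88%), beside 11.1% and 7.64% of all tested genes. The lists were chosen with earlier results of these data known, so their shares are not independent of these data. The shares over all genes depend on the filter, and with at least 5 FPKM 1356 of 7679 genes rose and 946 fell. The shares of the lists at that filter are not given here. Among 26 other ER folding factors, 10 rose and 1 fell, with a median log2 fold change of 0.13. ERP27, a non-catalytic disulfide isomerase relative, went from 4.27 ± 0.36 to 9.61 ± 0.39 FPKM (SD, n = 3; limma adjusted p = 0.000572), more than any member. ERO1A, the oxidase that recharges disulfide isomerases, was at 8.23, 8.69 and 8.15 FPKM in NC1 to NC3 and 13.0, 12.3 and 13.7 FPKM in SI1 to SI3 (log2 fold change 0.58 ± 0.05 SE; limma adjusted p = 0.00136). Its paralog ERO1B was at 4.40, 4.42 and 4.30 FPKM and then 2.60, 2.09 and 2.44 FPKM (-0.67 ± 0.07 SE; limma adjusted p = 0.00241). The paralogs thus moved in opposite directions. PRDX4, a peroxiredoxin that uses the peroxide made by ERO1 enzymes, rose from 29.4 ± 1.03 to 41.9 ± 1.77 FPKM (limma adjusted p = 0.00138). ERP27, ERO1A and PRDX4 kept their calls in all 16 alternative fits and ERO1B in the 15 that tested it. In the same list CALR, whose calreticulin chaperone is about as abundant as BiP at the RNA level, rose from 129 ± 3.55 to 151 ± 4.44 FPKM (SD, n = 3). CALR was added after its values were seen. Of the 128 list genes with a promoter window, 4 held the ER stress response element, namely CALR, which rose, ERO1B, which fell, and CANX and FICD, which did not pass (limma adjusted p = 0.243 and 0.221).

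Among 28 other genes of ER-associated degradation, 9 rose (32.1%) and 1 fell (3.57%), beside 11.1% and 7.64% of all tested genes. The median log2 fold change was 0.06. NPLOC4, UFD1 and VCP encode the segregase that pulls ubiquitinated proteins out of the membrane, and all 3 rose. NPLOC4 was at 18.01, 18.4 and 19.1 FPKM in NC1 to NC3 and 25.7, 25.8 and 24.5 FPKM in SI1 to SI3 (log2 fold change 0.44 ± 0.04 SE; limma adjusted p = 0.00145). UFD1 was at 7.11, 6.76 and 5.92 FPKM and then 11.1, 10.1 and 9.71 FPKM (0.57 ± 0.07 SE; limma adjusted p = 0.00393). VCP was at 57.7, 50.8 and 54.0 FPKM and then 64.8, 68.4 and 65.8 FPKM (0.29 ± 0.05 SE; limma adjusted p = 0.0106). In each of the 3 genes every si-circTMEM45A library was above every si-NC library, and the calls held in all 16 alternative fits. AUP1, an adaptor that brings a ubiquitin-conjugating enzyme to the HRD1 complex, rose from 25.8 ± 0.88 to 31.2 ± 1.08 FPKM (SD, n = 3; limma adjusted p = 0.00745). UBE2G2, added after its values were seen, was the gene that fell, from 28.5 ± 0.38 to 25.8 ± 0.65 FPKM (limma adjusted p = 0.038). UBE2G2 lost its call with no filter on low values, without the variance trend and without any 1 library except SI1 (limma adjusted p at most 0.12).

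In the PERK and ATF4 branch 2 of 12 tested genes rose (16.7%), beside 11.1% of all tested genes. The median log2 fold change was 0.04, beside 0.03 for all tested genes. ATF3 went from 20.5 ± 0.33 to 27.2 ± 1.87 FPKM and TRIB3, a pseudokinase induced in stress, from 27.4 ± 1.07 to 32.9 ± 1.10 FPKM (SD, n = 3; limma adjusted p = 0.00466 and 0.00965). The other 10 did not pass, among them CHAC1, SESN2 and ASNS with log2 fold changes of 0.01, 0.04 and -0.17. In sign, 10 of the 12 were positive and 2 negative. ATF4, the transcription factor translated when eIF2 alpha is phosphorylated, was at 161, 171 and 166 FPKM in NC1 to NC3 and 173, 176 and 180.5 FPKM in SI1 to SI3. That difference did not pass (log2 fold change 0.09; limma adjusted p = 0.132), nor did DDIT3, which encodes the death-promoting factor CHOP, at 3.26 ± 0.47 and 4.19 ± 0.73 FPKM (limma adjusted p = 0.156). Among 15 tested regulators of the response, CREB3 and CREB3L2, membrane-bound transcription factors related to ATF6, rose from 19.5 ± 1.197 to 25.9 ± 1.149 FPKM and from 11.7 ± 0.31 to 15.0 ± 0.92 FPKM (limma adjusted p = 0.00482 and 0.00745). TMBIM6, an inhibitor of IRE1 signalling, fell from 152 ± 2.93 to 132 ± 2.00 FPKM (limma adjusted p = 0.00615). MBTPS2, the protease that makes the second cut in ATF6, fell from 5.32 ± 0.10 to 4.44 ± 0.26 FPKM (SD, n = 3; limma adjusted p = 0.0359). MBTPS2 lost its call without any 1 library except SI1 (limma adjusted p 0.0813 to 0.11) and with no filter on low values (0.089). In all 3 rose and 2 fell in this list, with a median log2 fold change of 0.01.

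Of 10 tested genes of the oligosaccharyltransferase, which attaches glycans to chains as they enter the ER, 4 rose. DDOST went from 85.0 ± 4.12 to 102 ± 2.18 FPKM, RPN1 from 46.4 ± 1.70 to 52.5 ± 0.84 FPKM, RPN2 from 115 ± 2.16 to 127 ± 1.61 FPKM and the small subunit OST4 from 36.1 ± 1.09 to 40.3 ± 0.48 FPKM (SD, n = 3; limma adjusted p = 0.00798, 0.0219, 0.0222 and 0.0267). DDOST kept its call without any 1 library, and the other 3 did not. RPN1 lost it without NC3 or any 1 si-circTMEM45A library (adjusted p 0.0514 to 0.0664), RPN2 without NC2 or NC3 or SI2 or SI3 (0.059 to 0.0726), and OST4 without any except NC2 (limma adjusted p 0.0578 to 0.0859). RPN1, RPN2 and OST4 also lost it with median-of-ratios scaling (limma adjusted p = 0.052, 0.0738 and 0.0531) and without the variance trend. RPN2 lost it with no filter on low values (limma adjusted p = 0.0505) and OST4 with limma voom (adjusted p = 0.149). Of 27 targeting and translocation factors 3 rose and 3 fell, 11.1% each, so the share that rose was that of all tested genes. NOMO1, a translocon-associated protein with near-identical copies between which reads can be split, rose from 22.4 ± 0.40 to 29.3 ± 0.59 FPKM, and the signal peptidase subunits SPCS3 and SPCS1 from 7.003 ± 0.18 to 8.94 ± 0.69 FPKM and from 18.5 ± 0.33 to 22.1 ± 1.252 FPKM (limma adjusted p = 0.00157, 0.014 and 0.0154). EMC2, a subunit of the ER membrane protein insertase, fell from 8.55 ± 0.20 to 7.08 ± 0.32 FPKM (SD, n = 3; limma adjusted p = 0.0161). SPCS1 lost its call without NC1 or NC3 (limma adjusted p = 0.0522 and 0.0503), and EMC2 without NC2 or SI2 or SI3 (0.0542 to 0.0584). Of 7 ER-phagy receptors TEX264 and RETREG3 rose, from 7.78 ± 0.20 to 9.08 ± 0.22 FPKM and from 10.8 ± 0.18 to 12.2 ± 0.50 FPKM (limma adjusted p = 0.0214 and 0.0473). Of 11 COPII coat genes, which carry folded cargo out of the ER, SAR1A fell from 19.97 ± 0.62 to 17.5 ± 0.87 FPKM (SD, n = 3; limma adjusted p = 0.0429). TEX264 lost its call without NC1 or NC2 or SI2 or SI3, and RETREG3 and SAR1A without any 1 library except SI1 (limma adjusted p 0.0644 to 0.138). RETREG3 also lost it with TPM, median-of-ratios scaling and quantile normalization (limma adjusted p = 0.063, 0.118 and 0.0861). Both RETREG3 and SAR1A lost it with no filter on low values (limma adjusted p = 0.0852 and 0.0963) and without the variance trend (0.0688 and 0.0718).

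**Figure D4:**
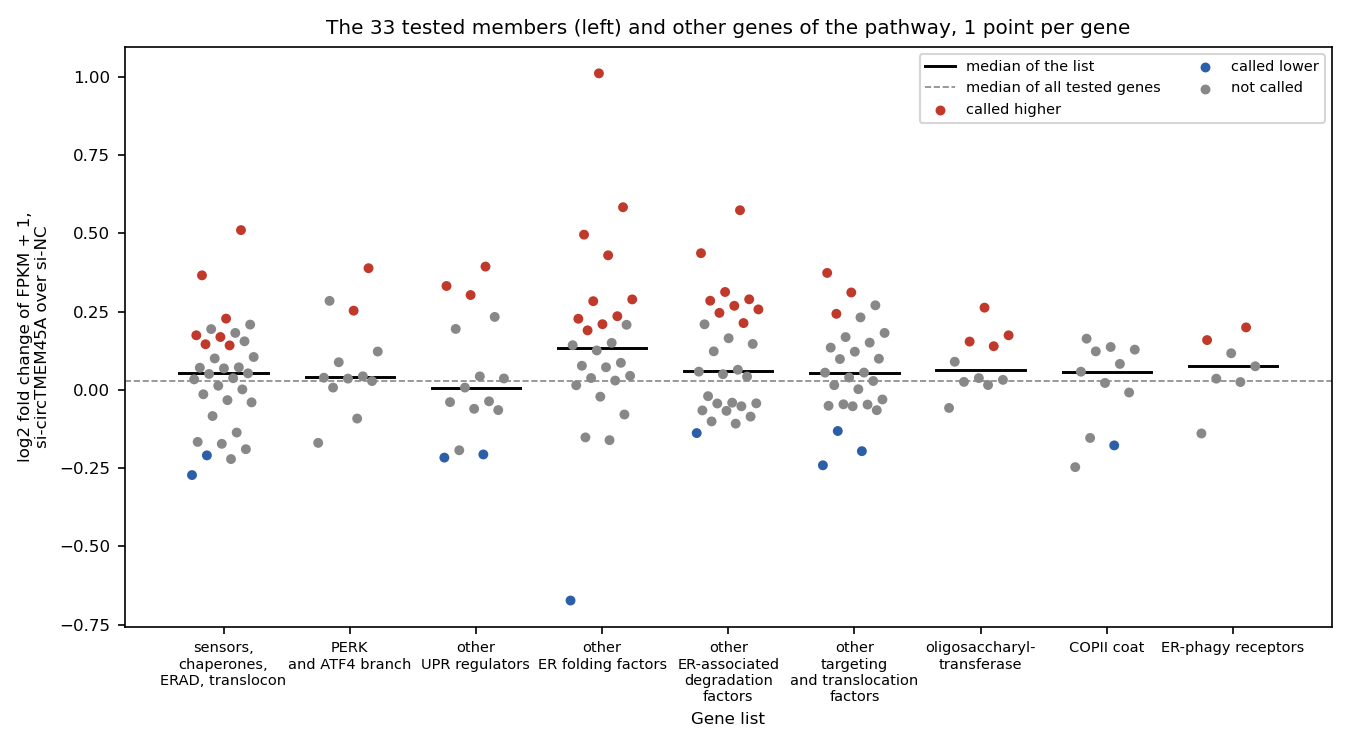
Log2 fold change of every tested gene of the member set and of the 8 further lists, 1 point per gene, with a bar at each list's median and a dashed line at the median of all tested genes, 0.03. ERP27 is the highest point and ERO1B the lowest, both among the other ER folding factors, where 10 of 26 genes rose. Of all tested genes, 11.1% rose.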

How the data were processed

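RNA was measured in 6 libraries, 3 per group, assigned from sample titles. The authors deposited FPKM per Ensembl gene. The build was GRCh38, and the tools named, per the submitters' processing notes, include HISAT2 2.2.1 and TopHat2, StringTie 2.1.6, HTSeq and cutadapt 1.9. What each did, and with which annotation, no source used here states. FPKM times GENCODE 29 exon length gave whole reads for 100% of values (tolerance 0.001), from which depth was taken; the smallest chi-square per degree of freedom between replicates was 2.71, so all 6 were kept as separate libraries.

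The test took genes reaching 1 FPKM in 3 or more libraries, fitted with limma 3.58.1 (R 4.3.3) on log2(FPKM + 1), with a mean-variance trend, two-sided, adjusted over all 12676 genes (threshold 0.05). The fits were tested on simulated reads. The members and lists were chosen with earlier results of these data known. Values are printed for members that passed, the sensors, XBP1 and HSPA5. They are also printed for up to 4 passing genes of each list by smallest p, plus ATF4 and DDIT3. SEL1L, SEC63, SSR2, HSP90B1, CRELD2, DNAJC3, P4HB, SYVN1, SEC61G, CALR and UBE2G2 were added after their values were seen. Alternatives changed the pseudocount, filter, scaling, trend, block and libraries; limma voom on the recovered reads was added after seeing the data and called 3369 genes. Protein sequences were not used here. Summaries and plots came from Python 3.11.15 (matplotlib 3.10.9, pandas 2.3.3, scipy 1.17.1).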

Additional observations from a re-analysis of the deposited data

How the results depend on the processing

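PPP1R15A, HSPA5 and HYOU1 passed in limma in all 16 alternatives, and the 6 other members that passed did not. The count of members that rose went from 7 to 4 with no filter on low values and to 3 with median-of-ratios scaling or without the variance trend, and lay between 3 and 6 when 1 library was left out. The count that fell went from 2 to 5 with median-of-ratios scaling or quantile normalization, to 7 with limma voom on the recovered reads, and to 0 in limma with no filter, where 6 lower members had an unadjusted p under 0.05. It lay between 0 and 3 when 1 library was left out. No filter tests 29816 genes, and the count of all genes passing then fell from 2380 to 1254; leaving out 1 library gave 1341 to 1945. Scaling moved the split of all genes from 1411 higher and 969 lower to 1021 and 1237 with median-of-ratios and to 1119 and 1168 with quantile normalization. Limma voom called 1958 genes higher and 1411 lower. The causes of the other shifts were not tested.

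Signs reversed only for members that did not pass. SDF2L1 turned to -0.022 with median-of-ratios scaling and -0.014 with quantile normalization, and PDIA4 to -0.0081 with TPM, -0.034 with median-of-ratios scaling and -0.0012 with quantile normalization. When 1 library was left out, log2 fold changes ranged from -0.085 to 0.048 for DNAJB9, -0.075 to 0.077 for SDF2L1, -0.036 to 0.044 for PDIA4, -0.024 to 0.075 for SSR1 and -0.097 to 0.030 for SSR3. The replicate numbers gave no pairing, since same-numbered libraries deviated together at r = 0.026, 0.011 and 0.047 only, and NC2 correlated best with SI1. With the replicate block 4 members rose, PPP1R15A, HSPA5, HYOU1 and XBP1 (limma adjusted p = 0.0438 for XBP1), and SERP1 fell. PDIA6, DERL1, SEC61A1, SEC61B and SSR4 were then at limma adjusted p 0.0662, 0.0618, 0.0938, 0.0693 and 0.0658. Of the list genes named by smallest p, MBTPS2, RPN2, OST4, SAR1A, TEX264 and RETREG3 were at limma adjusted p 0.0514 to 0.096. UBE2G2 lost its call too. The 4 widest standard errors, 0.082 to 0.085, were those of EIF2AK3, CRELD2, ERN1 and DNAJB9, on 182 to 375 reads, and SSR3 reached 0.076 on 1641 to 2009 reads; the part of depth was not tested.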

Other observations

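Libraries of one group differed in the same way for many members. Among the 33 tested members, si-NC replicate 1 was the highest si-NC library for 21 and si-NC replicate 3 for 3, and si-circTMEM45A replicate 2 was the lowest si-circTMEM45A library for 17. These counts were taken over the members alone and not over all tested genes, so they do not set the members apart from other genes. The values were not tested and the libraries have no order.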
